A study of Homo sapiens with 6 samples.

Results

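The immunoproteasome and the peptide loading machinery were described through 10 listed genes: PSMB8, PSMB9, PSMB10, PSME1, PSME2, TAP1, TAP2, TAPBP, ERAP1 and ERAP2. Members were all probe sets annotated to exactly 1 gene from that list, which gave 22 probe sets for 9 genes out of 54613 non-control probe sets. The only probe set naming PSME2 also named a second gene, so PSME2 has no value here.

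RNA levels come from 6 Affymetrix HG-U133 Plus arrays, 3 for each of 2 stably transfected lines made from SKOV3.ip1, an established human ovarian cancer line derived from SKOV3. Both lines carried a vector for PEA-15, a small adaptor protein that binds ERK and FADD. In the S116A line alanine took the place of Ser116, a residue that then cannot be phosphorylated. In the S116D line aspartic acid, which mimics a phosphate, took its place. The labels do not settle the S116D form, because its sample characteristics add Ser104 and its treatment text names Ser16. They leave unsaid whether a line is 1 clone or a pool. Nor do they say that the 3 arrays of a line are separate cultures, and p-values here thus cover array-to-array spread alone, possibly a technical one. Neither parental cells nor an empty vector were among the arrays used here. Differences are log2 values, S116D minus S116A, and a value above 0 means a higher signal in S116D.

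Cells show fragments of their own proteins on HLA class I molecules. The proteasome cuts the proteins, and interferon makes cells replace its 3 constitutive catalytic subunits with PSMB8, PSMB9 and PSMB10, which changes the cut. PSME1 and PSME2 form a cap that opens the proteasome. TAP1 and TAP2 form the transporter that moves peptides into the endoplasmic reticulum, where ERAP1 and ERAP2 trim them. Tapasin, the product of TAPBP, holds the empty class I molecule at the transporter while a peptide is selected.

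TAP1 and PSMB9 lie head to head on chromosome 6, and RefSeq (GRCh38.p14) places 487 bases between their starts. The 250 bases before the start are printed for this pair, which rose together, and for TAP2, PSMB10 and TAPBP. The windows of TAP2, PSMB10 and TAPBP, like that of TAP1, held an interferon motif. Not all windows with such a motif are printed. Where RefSeq lists several starts the outermost is used. Capitals mark matches on either strand to the core of the interferon-stimulated response element (ISRE), which is GAAA, any 2 bases and GAAA again. Overlapping matches run together.
TAP1 (chr6:32853705-32853954, minus strand): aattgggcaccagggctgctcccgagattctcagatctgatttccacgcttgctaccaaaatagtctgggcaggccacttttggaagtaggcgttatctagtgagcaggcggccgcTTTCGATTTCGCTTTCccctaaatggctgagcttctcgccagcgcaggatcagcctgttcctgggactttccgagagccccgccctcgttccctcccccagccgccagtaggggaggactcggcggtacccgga
PSMB9 (chr6:32853942-32854191, plus strand): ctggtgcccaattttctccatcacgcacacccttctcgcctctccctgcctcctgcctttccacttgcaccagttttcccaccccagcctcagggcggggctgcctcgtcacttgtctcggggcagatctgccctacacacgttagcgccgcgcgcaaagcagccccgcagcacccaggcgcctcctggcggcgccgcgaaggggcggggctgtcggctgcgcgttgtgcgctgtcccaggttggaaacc
TAP2 (chr6:32838740-32838989, minus strand): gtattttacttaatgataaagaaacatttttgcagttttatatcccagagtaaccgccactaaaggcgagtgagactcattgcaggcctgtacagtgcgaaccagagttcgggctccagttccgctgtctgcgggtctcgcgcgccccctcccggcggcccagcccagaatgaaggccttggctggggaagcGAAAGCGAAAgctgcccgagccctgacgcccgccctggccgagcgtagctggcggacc
PSMB10 (chr16:67936851-67937100, minus strand): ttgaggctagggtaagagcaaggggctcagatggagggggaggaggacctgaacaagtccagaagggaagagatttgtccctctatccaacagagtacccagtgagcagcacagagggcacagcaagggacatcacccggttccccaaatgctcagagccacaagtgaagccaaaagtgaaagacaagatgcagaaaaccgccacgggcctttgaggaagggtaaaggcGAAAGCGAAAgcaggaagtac
TAPBP (chr6:33314079-33314328, minus strand): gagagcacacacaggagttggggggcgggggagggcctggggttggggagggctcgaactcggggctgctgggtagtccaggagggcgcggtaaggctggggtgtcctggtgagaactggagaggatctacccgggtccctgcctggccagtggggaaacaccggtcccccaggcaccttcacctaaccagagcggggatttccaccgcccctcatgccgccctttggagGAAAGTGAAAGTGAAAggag

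RefSeq gave 14 such windows for the 10 listed genes, and 6 of them, from 6 genes (PSMB10, PSME2, TAP1, TAP2, TAPBP and ERAP2), held the ISRE core. Of all 35116 windows of this length, 3.02% held it. The core of the gamma-activated site, TTCNNNGAA, was found in 2 member windows, at the inner starts of PSMB8 and TAP1, against 6.57% of all windows. These letters are matches, not measured binding. The PSMB9 window held neither motif, but it covers only 250 of the 487 bases between the starts of TAP1 and PSMB9. The ISRE matches of the TAP1 window lie in that shared stretch, outside the PSMB9 window. The TAP1 and TAPBP windows each held overlapping ISRE matches.

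Of the 22 member probe sets, 14 were higher in S116D and 0 lower at a limma adjusted p under 0.05, which is what "called" means here. Over all 54613 probe sets 4.36% were called higher and 4.19% lower, 8.55% in either direction. The called probe sets belonged to 8 of the 9 measured genes, all but TAPBP. The median difference was 0.54 over the members and 0.00 over all probe sets. For 15 member probe sets the 3 S116D values all lay above the 3 S116A values, against 12.5% of all probe sets, and for 1 they all lay below, against 11.5%. At least 2-fold rises were called for 8 member probe sets, against 0.595% of all. The arrays read RNA from whole cultures, so a larger share of cells expressing a gene and more RNA per cell cannot be told apart.

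**Figure D1:**
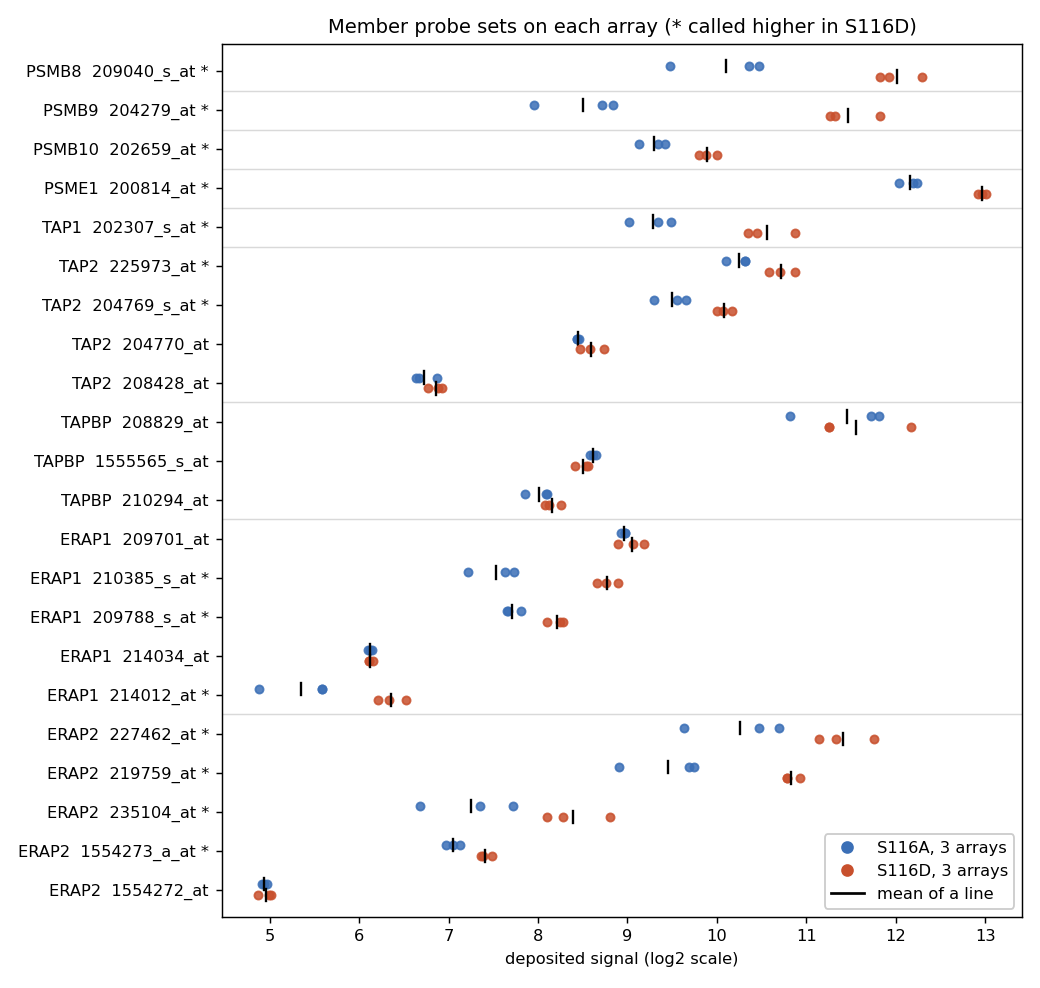
Deposited signal (log2 scale) of the 22 member probe sets on each array, with S116A in blue, S116D in orange and black ticks at the mean of each line. The lines are apart for the 14 starred probe sets and overlap for most others; PSMB9 reads 7.96 to 8.84 in S116A and 11.26 to 11.82 in S116D.

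All 3 catalytic subunits of the immunoproteasome rose, and PSMB9 and PSMB8 had the largest differences of all members. PSMB9 read 8.72, 8.84 and 7.96 on the S116A arrays and 11.82, 11.32 and 11.26 on the S116D arrays. The groups were far apart, with S116A 3 low within its line. The difference was 2.96 ± 0.24 (SE), or 7.78-fold (limma adjusted p = 0.00023), which ranked 13 among the differences of all 54613 probe sets. PSMB8, encoded in the same stretch of chromosome 6, read 10.47, 10.36 and 9.48 in S116A and 12.29, 11.92 and 11.82 in S116D. Again S116A 3 was lowest, S116D 1 highest, and the lines did not overlap. Its difference was 1.90 ± 0.25 (SE), or 3.74-fold (limma adjusted p = 0.0025). PSMB10, encoded on chromosome 16, read 9.34, 9.42 and 9.13 against 10.00, 9.80 and 9.88. All S116D values were above all S116A values, but the difference of 0.60 ± 0.10 (SE), 1.51-fold, was smaller (limma adjusted p = 0.0079). The 95% interval of PSMB10 (0.37 to 0.82) lay below those of PSMB8 (1.34 to 2.47) and PSMB9 (2.42 to 3.50), which overlap slightly.

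The constitutive subunits that these replace were not called. PSMB5, the counterpart of PSMB8, read 13.25, 13.21 and 13.35 in S116A and 13.20, 13.27 and 13.27 in S116D, a difference of -0.03 (95% interval -0.17 to 0.12). PSMB6, the counterpart of PSMB9, read 12.07, 12.20 and 12.24 against 11.97, 12.02 and 12.08, a difference of -0.15 (-0.32 to 0.03). PSMB7, the counterpart of PSMB10, differed by -0.01 (-0.19 to 0.17) on its brighter probe set and by 0.17 (-0.07 to 0.41) on the dimmer. Within each array the immunoproteasome subunit was then set against its counterpart, to ask whether their changes differed. That contrast moved by 3.11 for PSMB9 against PSMB6, by 1.93 for PSMB8 against PSMB5 and by 0.61 for PSMB10 against PSMB7. For all 3 pairs the S116D arrays lay above the S116A arrays without overlap. The exact two-sided permutation p was 0.1 for each, also 0.1 after Benjamini-Hochberg adjustment over the 3 pairs, and 0.1 is the smallest that 3 arrays against 3 allow.

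**Figure D2:**
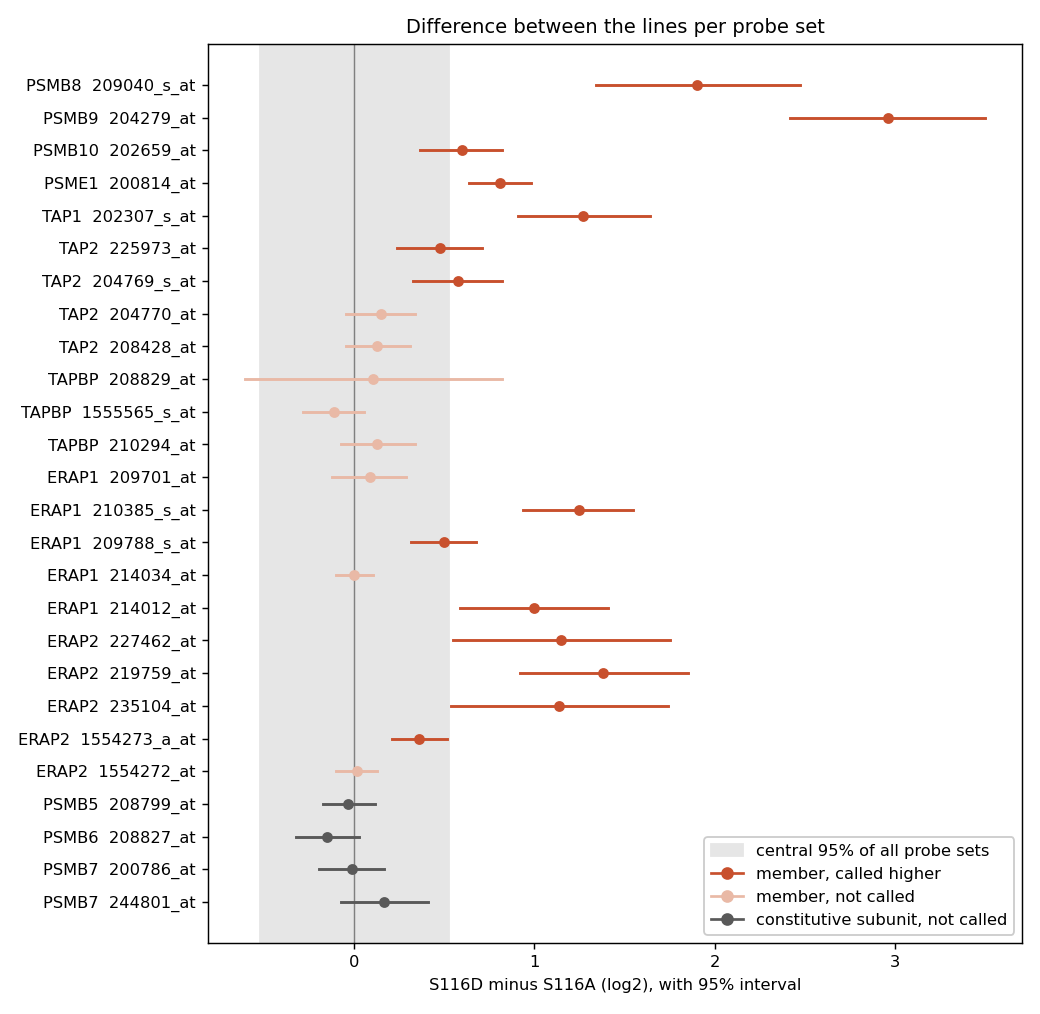
Difference between the lines (S116D minus S116A, log2) with its 95% interval for the 22 member probe sets and the 4 probe sets of the constitutive subunits, over a grey band that holds the central 95% of all probe sets (-0.52 to 0.53). Of the members 11 lie above the band and none below it, and the constitutive subunits lie inside it.

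Other proteasome genes moved little. Of 25 probe sets of the remaining core subunits 2 were called higher and 0 lower, with a median difference of 0.04. Both belong to PSMB4, a structural subunit of the core (0.25 and 0.37). Of 31 probe sets of the regulatory particle, which recognises and unfolds substrates, 3 were called higher and 2 lower, with a median of -0.01. The 3 rises were all of PSMD4, a ubiquitin receptor (0.40 to 0.47, 3 of 4 probe sets), and the falls were PSMD9, an assembly chaperone (-0.46), and PSMD11, a scaffold subunit (-0.79), each on 1 of 2 probe sets. Of 21 probe sets of other activators, the inhibitor and assembly factors, 0 were higher and 1 was lower, that of the activator PSME4 (-0.29, 1 of 3 probe sets). These shares stand beside 4.36% higher and 4.19% lower over all probe sets. The rises of PSMB4 and PSMD4 were lost without S116A 1, S116A 2, S116D 2 or S116D 3 (limma adjusted p up to 0.17), 1 PSMB4 probe set was also lost without S116A 3 and the other without S116D 1. The fall of PSMD9 was lost without S116A 1, S116D 2 or S116D 3 (up to 0.072) and that of PSME4 without any 1 array (0.06 to 0.15), whereas PSMD11 remained called in each of these 6 fits.

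PSME1, a subunit of the proteasome cap, rose on its single probe set. It read 12.24, 12.19 and 12.04 in S116A and 13.01, 12.97 and 12.92 in S116D. The lines were clearly apart and each was tight, with SDs of 0.10 and 0.05 (n = 3 each). The difference was 0.81 ± 0.08 (SE), 1.75-fold (limma adjusted p = 0.0005). PSME3, which forms the nuclear cap, was not called on any of its 4 probe sets.

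The transporter genes both rose, TAP1 more than TAP2. TAP1 read 9.34, 9.49 and 9.02 in S116A and 10.87, 10.45 and 10.35 in S116D. There was no overlap, and S116D 1 stood highest. The difference was 1.27 ± 0.16 (SE), 2.42-fold (limma adjusted p = 0.0021, 95% interval 0.91 to 1.64). TAP2 was read by 4 probe sets, of which 2 were called. On the brightest (225973_at) it read 10.32, 10.31 and 10.10 against 10.87, 10.58 and 10.71, a difference of 0.48 ± 0.10 (SE), 1.39-fold (limma adjusted p = 0.024, interval 0.24 to 0.71). On the next (204769_s_at) it read 9.66, 9.55 and 9.30 against 10.17, 10.07 and 10.00, a difference of 0.58 ± 0.11 (SE), 1.49-fold (limma adjusted p = 0.012). Both TAP2 probe sets had all S116D values on top, and their intervals lie below that of TAP1. The remaining probe sets, 204770_at and 208428_at, differed by 0.15 (interval -0.04 to 0.34) and 0.13 (-0.04 to 0.31) and were not called. The TAP2 calls sat close to the threshold: 225973_at lost its call without S116A 1, S116A 2, S116A 3 or S116D 3 (limma adjusted p 0.057 to 0.081), and 204769_s_at without S116D 2 (0.052).

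None of the 3 TAPBP probe sets, which read tapasin, was called, but the call on the brightest depends on the model. The brightest (208829_at) read 11.81, 11.72 and 10.82 in S116A and 12.17, 11.25 and 11.25 in S116D. The values of the lines were interleaved, with S116A 3 lowest and S116D 1 highest, and the difference was 0.11 ± 0.31 (SE; 95% interval -0.60 to 0.82; limma adjusted p = 0.92). That interval is the widest among the members and includes the differences of PSMB10, PSME1 and TAP2. The other probe sets were tighter, at -0.11 (-0.28 to 0.06) for 1555565_s_at and 0.13 (-0.07 to 0.34) for 210294_at. On 1555565_s_at the 3 S116D values lay just below the S116A values, the only member for which they did. The direction on 208829_at depended on the arrays, at -0.21 without S116A 3 and -0.20 without S116D 1, and at up to 0.29 without one of the others. It was called higher, at 0.42 (limma adjusted p = 0.0011), in a fit, added once the data had been seen, with 2 sets of arrays as a block. Those sets were drawn from the values of these same arrays, so the p-values of that fit may be too small.

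Of the trimming enzymes, ERAP2 rose on 4 of its 5 probe sets. Its probe set 219759_at read 9.69, 9.75 and 8.91 in S116A and 10.93, 10.78 and 10.79 in S116D. The S116D arrays were nearly level, and S116A 3 was well below the rest of its line. The difference was 1.38 ± 0.20 (SE), 2.61-fold (limma adjusted p = 0.0043). The brightest probe set, 227462_at, read 10.47, 10.69 and 9.63 against 11.76, 11.14 and 11.33, a difference of 1.15 ± 0.26 (SE), 2.22-fold (limma adjusted p = 0.031). The lines did not overlap here either, but each spread widely. The rises on 235104_at (1.14 ± 0.26, SE) and on 1554273_a_at (0.36 ± 0.07, SE) were also called, at limma adjusted p of 0.031 and 0.013. The fifth, 1554272_at, read 4.87 to 5.01 on all arrays, below the lower quartile of every array (6.623 to 6.653), and differed by 0.02. The calls on 227462_at and 235104_at were lost without S116A 1, S116D 1, S116D 2 or S116D 3 (limma adjusted p 0.051 to 0.086), and that on 1554273_a_at without S116A 2 or S116D 2 (0.053 and 0.056). The call on 219759_at remained in all 6 fits.

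ERAP1 gave different answers on its 5 probe sets. On 210385_s_at it read 7.22, 7.63 and 7.73 in S116A and 8.66, 8.76 and 8.90 in S116D, a clear separation. The difference was 1.25 ± 0.13 (SE), 2.37-fold (limma adjusted p = 0.00095). On 209788_s_at it read 7.81, 7.67 and 7.65 against 8.10, 8.25 and 8.28, a smaller difference of 0.50 ± 0.08 (SE), 1.41-fold (limma adjusted p = 0.0056). The third call, on 214012_at, was a 2-fold rise (limma adjusted p = 0.011) from a mean of 5.35 to 6.36, both below the lower quartile of the arrays. The brightest ERAP1 probe set, 209701_at, read 8.97, 8.93 and 8.97 against 9.19, 8.89 and 9.06. These values overlap, and the difference of 0.09 (95% interval -0.12 to 0.29) lies outside the intervals of all 3 called ERAP1 probe sets. The remaining probe set, 214034_at, differed by 0.00 (-0.10 to 0.11) at a dim level near 6.1. Which transcripts the ERAP1 probe sets read was not examined, so the gene's change rests on the choice of probe set.

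Other genes of the pathway showed rises mainly at the class I molecule itself. Of 17 probe sets of HLA-B, HLA-C, HLA-E, HLA-F and HLA-G, 16 were called higher and 0 lower, with a median difference of 0.95. HLA-B rose by 1.38 to 1.61 on its 3 probe sets and HLA-C by 1.07 to 1.31 on its 4, and 1 HLA-E probe set (0.24) was not called. When 1 array was left out, 13 to 16 of the 17 were called. Such probe sets can read several class I genes, so they are not separate readings. B2M, the light chain that all class I molecules share, read 12.89, 12.82 and 13.00 against 13.83, 13.79 and 13.70 on 216231_s_at, a rise of 0.87 (limma adjusted p = 0.00026). A second B2M probe set, at 14.22 in S116A, rose by 0.32 (limma adjusted p = 0.012), and the third, a dim one, differed by 0.17 and was not called (0.21). Of the 25 probe sets of further loading and trimming genes, B2M included, 4 were called higher and 2 lower, with a median of -0.05. Over all probe sets 4.36% were called higher and 4.19% lower. Besides B2M, the chaperone gene CANX rose by 0.44 on 1 of 5 probe sets and TAPBPL, a tapasin relative, by 0.27 on 1 of 2 from a dim signal. The other CANX probe sets, not called, differed by -0.05 to 0.29, the brightest of them by 0.17. The falls were of the cytosolic peptidases THOP1 (-0.61) and TPP2 (-0.42, 1 of 4). CANX, TAPBPL and THOP1 lost their calls without S116A 1, S116A 2, S116D 2 or S116D 3, CANX also without S116A 3, and TPP2 without any array but S116D 2 (limma adjusted p up to 0.13). CALR and PDIA3, which sit with tapasin in the loading complex, were not called on any probe set.

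**Figure D3:**
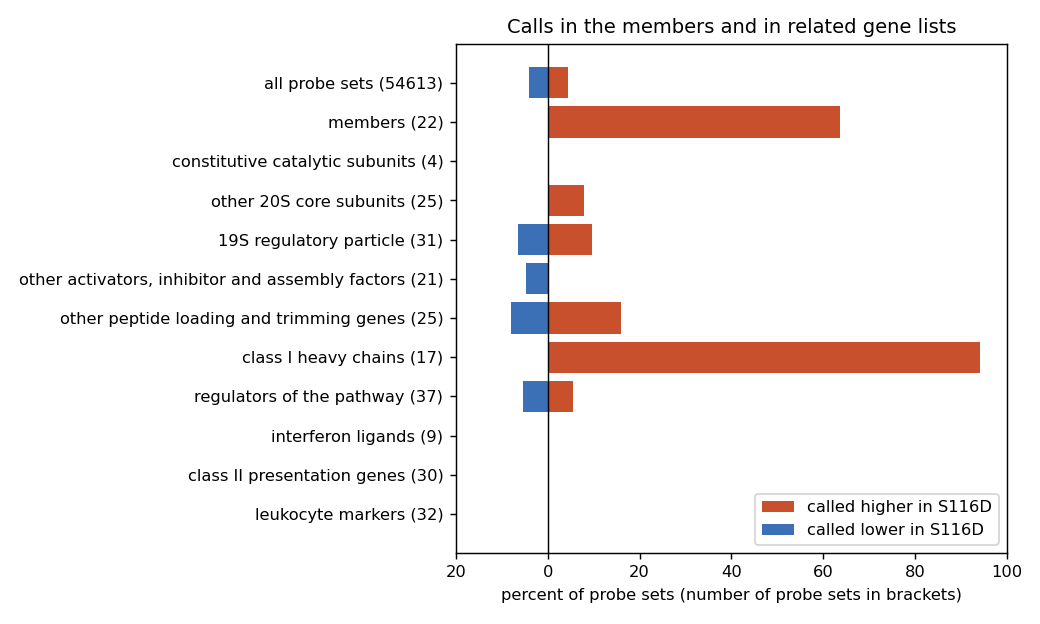
Percent of probe sets called higher (orange, to the right) or lower (blue, to the left) in S116D, with the number of probe sets in brackets. The members (63.6% higher) and the class I heavy chains (94.1%) stand above all probe sets (4.36%), and the proteasome lists without immunoproteasome genes reach at most 9.68% higher.

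Among 37 probe sets of interferon signalling and class I regulators, 2 were called higher and 2 lower, with a median of 0.07 and 29 differences above 0. These calls (5.41% each way) are near the shares over all probe sets, 4.36% higher and 4.19% lower. The count of higher calls depends on the model. It was 8 with the same 2 sets of arrays as a block, where 7.47% of all probe sets were called higher. It was 4 with the replicate number as a block or among probe sets above the median signal. The lower calls were 3, 2 and 1 in these fits. NLRC5, the transactivator of class I genes, read 9.29, 9.60 and 8.99 in S116A and 10.53, 10.39 and 10.29 in S116D, a rise of 1.11 (limma adjusted p = 0.0028). RFX5, a subunit of the complex NLRC5 acts with, rose by 0.51 (limma adjusted p = 0.01, or 0.054 without S116D 2) on 1 of 2 probe sets. Its other, brighter probe set differed by 0.53 without overlap of the lines, and was not called (limma adjusted p = 0.057). RFXAP, another subunit of that complex, fell by 0.31 and 0.55 on its 2 probe sets. Both RFXAP calls were lost without S116A 2 or S116D 2, and the smaller also without S116A 3 or S116D 3 (limma adjusted p up to 0.092). IRF1, a factor that binds the ISRE, differed by 0.03 and -0.04 and was not called. IRF2 differed by 0.40 (limma adjusted p = 0.29) and IRF9 by 0.38 (limma adjusted p = 0.081). Both had all S116D values above the S116A values, and neither was called. No probe set of 9 interferon ligand genes was called (0 of 9 by limma, 0 with an unadjusted p under 0.05), and IFNG read 6.74 to 6.92 against 6.94 to 6.96. Class II genes gave 0 calls on 30 probe sets, again with 0 at an unadjusted p under 0.05. Over all probe sets 8.55% were called in either direction, so 0 calls on lists this short say little.

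Whether the genes beside the members changed as well differed between loci. Of 11 measured neighbours of the TAP2, PSMB8, TAP1 and PSMB9 run, 5 on each outer side and PSMB8-AS1 within it, none was called on its brightest probe set, with differences from -0.28 to 0.16. PSMB8-AS1, a non-coding gene whose locus overlaps that of PSMB8 in RefSeq, was split. Its dimmer probe set (1555852_at) read 7.01, 6.84 and 6.69 in S116A and 8.10, 8.07 and 8.11 in S116D, a rise of 1.25 (limma adjusted p = 0.0001), and its brighter one differed by -0.03. HLA-DOB and HLA-DMB, the class II genes on either flank, differed by 0.09 (95% interval -0.13 to 0.30) and 0.16 (-0.01 to 0.32) on their brightest probe sets. Around PSMB10 none of 10 neighbours was called on the brightest probe set, and around PSME1 and TAPBP IPO4 (-0.33) and WDR46 (-0.36) alone were called, both lower. Around ERAP1 and ERAP2, on chromosome 5, 3 of 10 neighbours were called higher: GLRX, a glutaredoxin (1.61, limma adjusted p = 0.00019), the kinase gene RIOK2 (0.92, 0.0035) and CAST, the calpain inhibitor (0.40, 0.043). A dimmer ELL2 probe set was called lower. Counted by probe set, 5 of 29 around ERAP1 and ERAP2 were called higher and 1 lower. For the neighbours at all loci it was 6 of 101 higher and 3 lower, against 4.36% and 4.19% of all probe sets. The rises of GLRX and RIOK2 remained in each fit that left out an array. CAST kept its call only without S116A 1, IPO4 only without S116A 3 or S116D 1, and WDR46 in none of those fits (limma adjusted p up to 0.14).

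**Figure D4:**
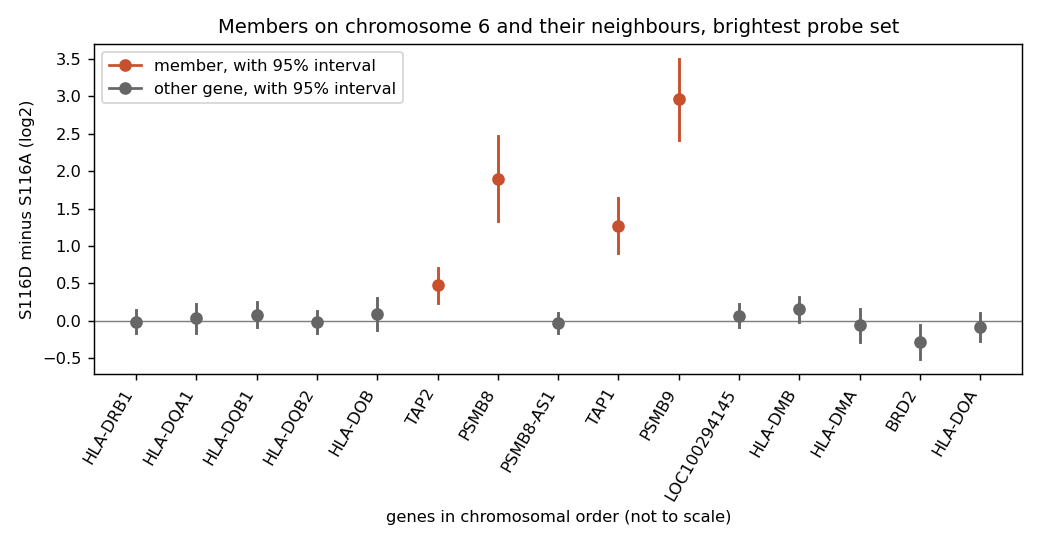
Difference between the lines (S116D minus S116A, log2, with 95% interval) for the brightest probe set of each gene, in chromosomal order around TAP2, PSMB8, TAP1 and PSMB9 (orange). The 4 members lie between 0.48 and 2.96, and the neighbours (grey) between -0.28 and 0.16; the dimmer PSMB8-AS1 probe set, at 1.25, is not drawn.

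The genes whose profile came closest to that of PSMB9 were TRIM6, BST2, TMEM47, UCP2 and RASEF. Closeness was the root mean square distance over the 6 arrays after centring each gene on its S116A mean, and it was 0.14 for TRIM6, 0.19 for BST2, 0.25 for TMEM47, 0.28 for UCP2 and 0.29 for RASEF. TRIM6 read 9.10, 9.12 and 8.29 in S116A and 12.44, 11.48 and 11.61 in S116D. Like PSMB9 it was lowest on S116A 3 and highest on S116D 1, as were UCP2 and RASEF. Choosing genes by closeness over these arrays favours such an order, so it is no separate result.

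The order of the arrays within each line recurred across members. Among the 14 called probe sets S116A 3 was the lowest S116A array for 12, and S116D 1 the highest S116D array for 11. The second principal component of all probe sets (20.31% of the variance) split the arrays in a way that no label gives. Its first set held S116D 1 with S116A 1 and 2, and its second S116A 3 with S116D 2 and 3. All 14 called member probe sets were higher in S116D within both sets, by 0.33 to 3.04 in the first and by 0.38 to 3.33 in the second. Where the lines do not overlap this direction is fixed, so only the sizes are informative. In a fit with these sets as a block, an alternative added once the data had been seen, 15 member probe sets were called higher and 0 lower, against 7.47% and 7.36% of all probe sets, and the 15 included the 14. The added one was 208829_at of TAPBP, with 0.41 in the first set and 0.43 in the second. Because the sets were drawn from the tested values, p-values of the block fit may be too small. What separates the sets was not tested.

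**Figure D5:**
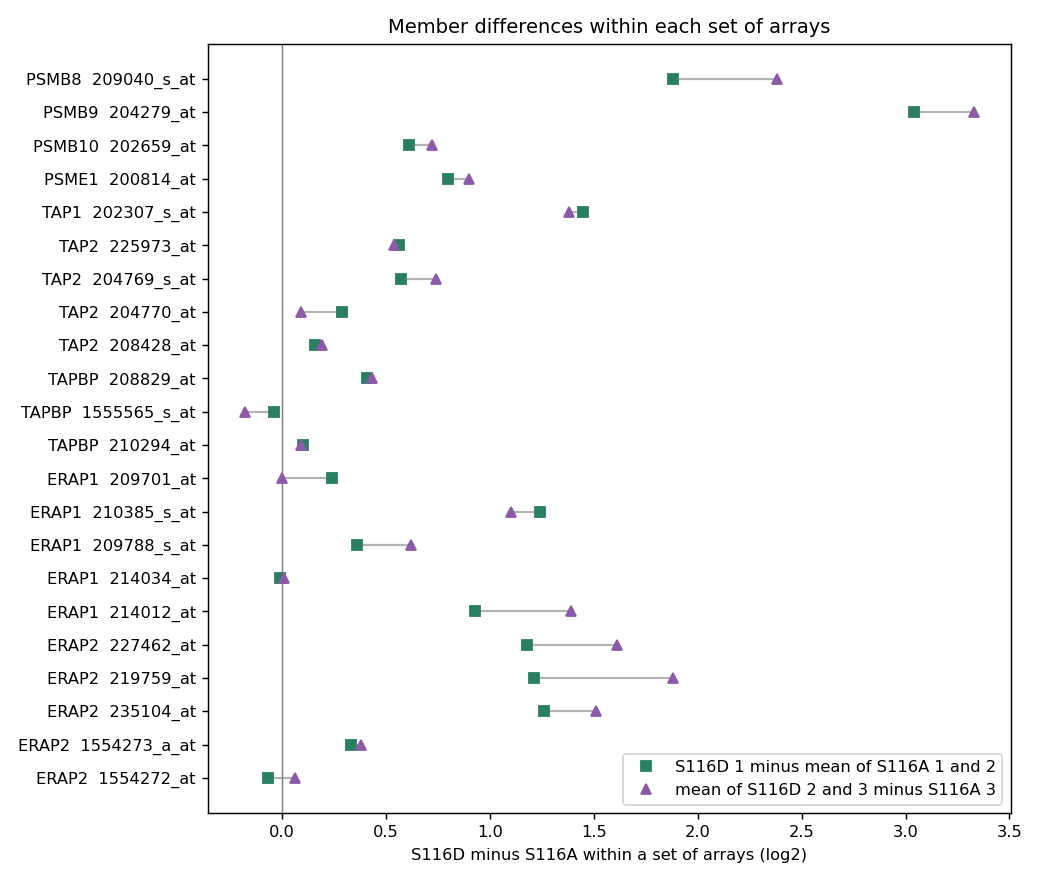
Difference between the lines (log2) within the first set of arrays (squares) and within the second (triangles) for the 22 member probe sets, joined by grey lines. For PSMB9 the values are 3.04 and 3.33, for TAP1 1.45 and 1.38, and for TAPBP on 208829_at 0.41 and 0.43.

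Markers were read to check the cell type. Both lines had high signals for EPCAM, KRT8, KRT18, ERBB2, PAX8 and VIM on their brightest probe sets, whereas MUC16 was dim, at 6.72 in S116A and 6.59 in S116D. The epithelial markers EPCAM (-0.90), KRT7 (-1.56), KRT8 (-0.39), KRT18 (-0.70) and KRT19 (-2.26) were called lower in S116D on their brightest probe set. In all 6 of 25 marker probe sets of the line were called lower and 0 higher, against 4.19% and 4.36% of all probe sets. The summed signal of these markers was 16.36 to 16.62 in S116A and 15.94 to 16.19 in S116D on the log2 scale. Their part in the rises above was not tested. The EPCAM call was lost without S116A 1, S116A 2, S116D 2 or S116D 3 and the KRT8 call without S116A 1, S116D 2 or S116D 3 (limma adjusted p up to 0.087). Of 32 leukocyte probe sets 0 were called, against 8.55% of all probe sets in either direction, and 0 reached an unadjusted p under 0.05. Their summed signal was 12.71 to 12.77 in S116A and 12.73 to 12.79 in S116D on the log2 scale. Levels in this list varied by probe set: PTPRC, which marks all leukocytes, averaged 4.71 to 7.05 on its 5 probe sets, whereas CD3E (9.52 in S116A and 9.57 in S116D), CD4 on 203547_at (9.53 and 9.56) and CD53 on 203416_at (9.41 and 9.44) lay above the upper quartile of the arrays. Without detection calls these levels do not show whether the genes are expressed. Of 26 fibroblast and endothelial probe sets 0 were called, against the same 8.55%, and 1 had an unadjusted p under 0.05.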

How the data were processed

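Each of the 6 arrays had 1 deposited value per probe set. Per the submitters' processing notes MAS5 and RMA were used, with no roles or versions given. The unit of the deposited values was read as log2 signal, already scaled between arrays, because they ran from 4.336 to 15.33 with array medians of 7.862 to 7.893. Detection calls were not used here, and summaries of this kind compress dim differences. Control probe sets (62) were left out. GEO's platform annotation, with symbols updated through RefSeq, gave 1 gene for 41091 probe sets, several for 1801 and none here for 11721.

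Lines were compared probe set by probe set with limma 3.58.1 in R 4.3.3 (eBayes with an intensity trend, no covariate), with Benjamini-Hochberg adjustment over 54613 probe sets and a threshold of 0.05. The fit was tested on simulated data. Precision was limited by 3 arrays per line. Members, lists and alternatives were chosen with earlier results of these data known. Named were all members, their constitutive counterparts, called genes of each list (at most 5, else the 4 smallest adjusted p), 5 neighbours per side and the 5 genes closest to PSMB9. Uncalled genes that came first in a list, such as IRF1, could be named as well. Genes named beyond this, such as CD53, were chosen after their values were seen. Alternatives are given in the closing section.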

Additional observations from a re-analysis of the deposited data

How the results depend on the processing

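Of 280 recomputed values of the 22 member probe sets, 259 kept their direction and their side of the threshold. The calls of PSMB8, PSMB9, PSMB10, PSME1, TAP1, the 3 called ERAP1 probe sets and 219759_at of ERAP2, 9 in all, were kept under every alternative run on them. The count of member probe sets called higher was 14 with quantile normalization, median centring, array weights or no trend, 11 of the 16 members brighter than the median of all probe sets, 15 when the 2 sets of arrays were a block, and 10 to 13 when 1 array was left out (10 without S116D 2); 0 were lower in any of these. With the brightest probe set of each gene 7 genes were higher (ERAP1 was not called). With the median over a gene's probe sets TAPBP read -0.11; that median fell on different probe sets in different arrays for ERAP1 and ERAP2, so no value is given for them. TAPBP on 208829_at turned to -0.15 with array weights and ran from -0.21 to 0.29 over the left-out arrays, and 1554272_at of ERAP2 ran from -0.01 to 0.06 and was -0.01 with the block of the 2 sets of arrays. All probe sets called numbered 4672, against 2608 to 4674 with 1 array left out and 8099 with that block. Calls in the related lists, marker lists included, were 27 higher and 13 lower, against 17 to 28 and 6 to 12 with 1 array left out, and 42 higher with the block of sets. The subunit contrasts ran from 2.80 to 3.26 for PSMB9, 1.58 to 2.12 for PSMB8 and 0.46 to 0.73 for PSMB10. Same-numbered arrays did not all deviate together (correlations of 0.45, -0.04 and 0.44), although 4 of the 6 arrays correlated best with the array of their own number. The replicate number was not used as a pairing in the main fit. With it as a block 7340 probe sets were called and the member count stayed at 14. The cause of these shifts was not tested. The planned pseudocounts were not run, because the values are on a log scale. Signal over background could not be judged, which limits what dim probe sets show.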
